A study of Mus musculus with 10 samples.

Results

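A set of 9 MHC class I antigen presentation genes was followed across Sirt6 knockout (KO) and wild-type (WT) mouse RNA during a TNF-alpha time course. They are Tap1, Tap2, Tapbp, B2m, Psmb8, Psmb9, Psmb10, H2-K1 and H2-D1, chosen by name from knowledge of the pathway. A probe was taken as a member where the platform annotation gave it exactly 1 of these 9 symbols, which selected 87 of the 38784 spots. They cover 8 of the 9 genes: 77 spots carry B2m, 3 carry Psmb8, 2 carry Psmb10, and Tap1, Tap2, Tapbp, Psmb9 and H2-K1 have 1 each. No probe was annotated to H2-D1, which was not analysed here. Of the 87 spots 85 had a value on all 10 arrays, including 75 of the 77 for B2m, and these gave the 8 genes among 14365 tested.

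The KO group had Sirt6-/- RNA at 0 h (2 arrays, a and b) and 1 array each at 1.5, 6 and 24 h of TNF-alpha, and the WT group had the same 5 arrays. The labels name no tissue, cell type, strain, age or TNF-alpha dose, and do not say whether letters a and b are separate cultures. The p-values therefore measure the spread between these arrays, which may be technical. For the genotype average and the TNF-alpha responses, that spread also holds any difference in response between the genotypes. Every array set 1 sample (Cy5) beside a pooled reference RNA (Cy3) that all 10 arrays share. A value is the log2 ratio of sample to reference, less the median of its array, so -1 is 1 log2 unit under the reference relative to the median gene. In bulk RNA, fewer cells of a type and less RNA per cell cannot be told apart. Levels are relative to the reference, so they are compared between arrays for 1 gene and not between genes.

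Class I molecules show peptides from inside the cell to CD8 T cells. Proteasomes cut proteins into peptides, and immune or interferon signals swap 3 of their catalytic subunits for Psmb8, Psmb9 and Psmb10. The Tap1 and Tap2 proteins together pump peptides into the endoplasmic reticulum, tapasin (Tapbp) bridges that transporter to newly made class I molecules, and the heavy chain (H2-K1, H2-D1) is displayed with the light chain B2m. The set is known to be induced by interferons and by NF-kB, the transcription factor that TNF-alpha activates. Sirt6 is a chromatin deacetylase reported to restrain NF-kB target genes.

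Promoter windows show which of these genes share regulatory DNA and which match fixed letter patterns for both signals. They run from 250 bases before to 50 bases after the gene start and come from RefSeq on GRCm38.p6, which held an entry for 8 of the 9 members. Tap2 was not among them. Capitals mark matches on either strand to the interferon-stimulated response element core (GAAA, any 2 bases, then GAAA), the gamma-activated site (TTCNNNGAA), the GC box (GGGCGG), the CCAAT box (CCAAT) or the NF-kB consensus. The Tap1 window lies at chr17:34187306-34187605 on the plus strand. It shares 275 bases with that of Psmb9, a gene transcribed from the other strand whose start is 226 bases from that of Tap1. Psmb9, Tap1, Psmb8 and Tap2 are consecutive neighbours in the annotation. The B2m window lies at chr2:122147437-122147736 on the plus strand and the H2-K1 window at chr17:34000298-34000597 on the minus strand.
Tap1: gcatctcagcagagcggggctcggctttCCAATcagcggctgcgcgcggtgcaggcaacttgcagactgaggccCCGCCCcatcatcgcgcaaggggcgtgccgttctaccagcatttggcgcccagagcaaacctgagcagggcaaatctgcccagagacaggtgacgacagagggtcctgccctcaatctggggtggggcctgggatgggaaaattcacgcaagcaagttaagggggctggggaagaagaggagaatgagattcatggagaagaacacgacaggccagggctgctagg
B2m: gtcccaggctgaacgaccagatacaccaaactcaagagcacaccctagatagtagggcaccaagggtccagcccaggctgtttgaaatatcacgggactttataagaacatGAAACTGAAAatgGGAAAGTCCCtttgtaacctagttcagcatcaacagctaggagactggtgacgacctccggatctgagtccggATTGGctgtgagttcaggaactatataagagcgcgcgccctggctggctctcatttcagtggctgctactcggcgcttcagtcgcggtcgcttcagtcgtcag
H2-K1: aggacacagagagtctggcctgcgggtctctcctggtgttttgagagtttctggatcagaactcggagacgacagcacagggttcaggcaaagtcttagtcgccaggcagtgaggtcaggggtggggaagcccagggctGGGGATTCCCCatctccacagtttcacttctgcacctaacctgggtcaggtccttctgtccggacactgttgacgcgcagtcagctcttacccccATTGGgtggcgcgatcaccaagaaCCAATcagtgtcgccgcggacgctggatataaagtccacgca
The interferon core matched in B2m alone among the 8 members, against 3.44% of 32851 promoters in the RefSeq table. In the B2m line it stands a few letters before the match to the NF-kB consensus, and the matches do not overlap. The NF-kB consensus matched in B2m, H2-K1 and H2-D1, against 8.46% of promoters, and the gamma-activated site in Psmb8 alone (8.3%). Tap1, Tapbp and Psmb9 held a GC box (35.7%) and 6 of the 8 a CCAAT box (37.4%). The Tap1 and Psmb9 windows overlap, so their matches are largely the same letters. A match is a description of the sequence and not a measured site. The fixed patterns miss variants of these elements, so a window without a match may still carry one.

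The targeted gene was first checked on each array. In KO, Sirt6 was at -1.05 and -0.82 without treatment and at -0.76, -1.16 and -0.05 after 1.5, 6 and 24 h, against -0.16 to 0.07 on the 5 WT arrays. The array labelled KO at 24 h therefore lay in the WT range for Sirt6, and KO at 24 h hereafter means the array so labelled. KO minus WT over all times without it was -0.52 for Tap1, 0.39 for Tap2, -0.68 for Tapbp, 0.20 for B2m and 0.18 for Psmb9. KO 0 h array b had the widest spread of spot values (SD 0.983, against 0.551 to 0.833 on the others) and the fewest values (36822 of 38784). As a check of the treatment, the chemokine gene Ccl2 rose over both genotypes by 2.84 on the log2 scale at 1.5 h, 2.90 at 6 h and 3.12 at 24 h (SE 0.23 each). Its adjusted p in limma was 0.0107, 0.00901 and 0.00491.

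**Figure D1:**
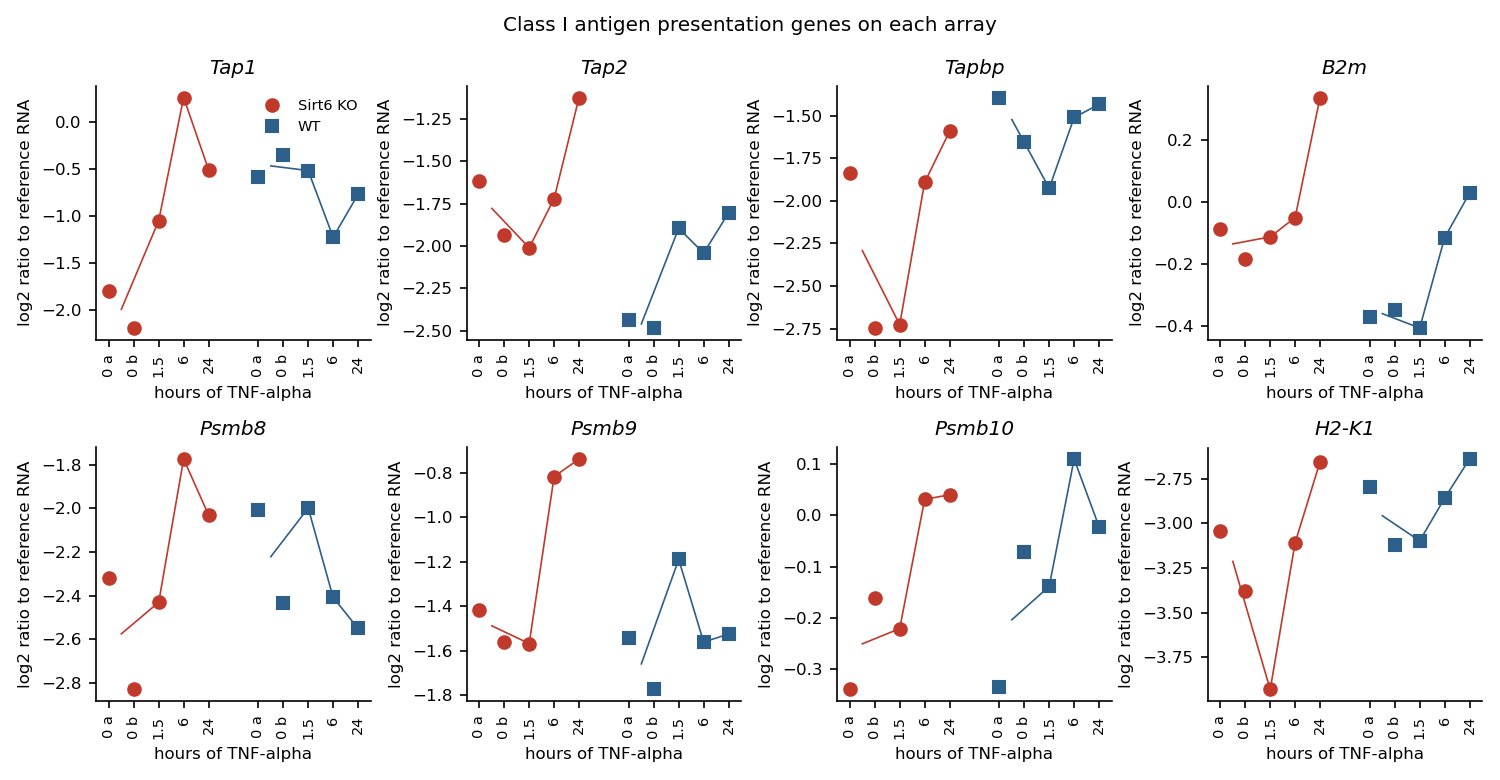
Log2 ratio to the reference RNA (vertical) of 8 class I genes on each array, with KO (red circles) left and WT (blue squares) right at 0 (arrays a and b), 1.5, 6 and 24 h of TNF-alpha (horizontal). Lines join the mean of the 0 h pair to the later arrays. Tap1 is lowest on the KO 0 h arrays (-1.79 and -2.19) and highest on the KO 6 h array (0.26).

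Tap1 had the largest differences among the members at 0 h and between the responses, while over all times Tapbp and Tap2 had larger ones. It lay below WT in KO at 0 h and was higher on each treated KO array than on the untreated KO arrays, whereas the treated WT arrays lay at or under the mean of the untreated WT pair. Tap2 and B2m had higher values in KO, and Tapbp lower, without passing the adjusted test. All 8 members averaged higher after 6 and 24 h of TNF-alpha, by up to 0.75 log2 units.

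No member passed an adjusted p of 0.05 (limma) in any of 10 comparisons, in which 0% to 0.0278% of all genes did. At an unadjusted p under 0.05 in KO against WT at 0 h, Tap2 was higher (as were 7.66% of genes) and Tap1 lower (9.50%). Over all times, Tap2 was higher (4.23%) and Tapbp lower (5.45%). In the TNF-alpha response at 24 h Tap2 and B2m were higher (3.88%) and 0 members lower (3.20%). For the KO minus WT difference of the response, Tap1 was higher at 6 h (7.57%), at 24 h (7.46%) and averaged (7.61%), and 0 members were lower (6.29%, 5.68% and 5.51%). In the other 4 comparisons 0 members passed. These were the responses at 1.5 h (1.22% of genes higher, 2.51% lower), at 6 h (1.22% higher, 1.66% lower) and averaged (2.15% higher, 2.10% lower), and the response difference at 1.5 h (2.23% higher, 1.49% lower). No member had all 5 KO arrays above or below all 5 WT arrays, as 0.961% and 1.28% of genes did, or all 3 treated KO arrays above or below the treated WT arrays (5.32% and 5.58%).

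Tap1 encodes a subunit of the peptide transporter. It was measured by the probe at spot 37676. At 0 h it was at -1.79 and -2.19 in KO, against -0.59 and -0.35 in WT. With TNF-alpha it stood at -1.05, 0.26 and -0.51 in KO at 1.5, 6 and 24 h, against -0.52, -1.23 and -0.77 in WT. The KO and WT arrays did not overlap at 0 h, as held for 28.8% of genes in this direction. All 3 treated KO arrays lay above both untreated ones (12.9% of genes), and at 6 h the order of the genotypes was turned round.

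The KO minus WT difference of Tap1 at 0 h was -1.52 (SE 0.23, unadjusted p = 0.00101, adjusted p = 0.187, limma). In that comparison 0% of all genes passed the adjusted test, and 9.50% were lower at an unadjusted p under 0.05. Relative to untreated RNA of the same genotype, Tap1 was higher by 0.94, 2.25 (4.76-fold) and 1.48 on the KO arrays at 1.5, 6 and 24 h. The same differences in WT were -0.05, -0.76 and -0.30, and the WT array at 1.5 h lay between the 2 untreated ones, which were 0.24 apart. The test of the difference between these responses gave 0.99 (SE 0.41, adjusted p = 0.999) at 1.5 h, 3.01 (SE 0.41, unadjusted p = 0.000533, adjusted p = 0.152) at 6 h and 1.79 (SE 0.41, unadjusted p = 0.00604, adjusted p = 0.254) at 24 h. Across the 3 times it averaged 1.93 (SE 0.30, adjusted p = 0.227), where 7.61% of genes were higher at an unadjusted p under 0.05. At 6 h 0.00696% of genes passed the adjusted test and 7.57% were higher at an unadjusted p under 0.05. Of the 14365 genes 112 (0.780%) had a difference at 6 h at or above that of Tap1, with negative differences not counted. Tap1 was singled out as the member with the largest such difference, so this rank is a description. The later arrays have no replicate, so these errors rest on the 0 h pairs.

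The low KO 0 h level enters both results, since the response of KO is counted from it. Between the treated arrays alone, KO minus WT of Tap1 was -0.53 at 1.5 h, 1.48 at 6 h and 0.26 at 24 h. Averaged over the 5 arrays of each genotype, KO minus WT was -0.37 (SE 0.41, adjusted p = 0.791, limma), where 0% of genes passed. The 0 h arrays are 2 of those 5, so the low KO 0 h level weighs more in this average than any later time. The sign at 0 h was kept in all 21 alternatives run, from -1.72 to -0.84, and at 6 h in all 19, from 2.07 to 3.27. Leaving out KO 0 h array a gave -1.72 at 0 h and 3.20 for the 6 h response difference. Leaving out KO 0 h array b gave -1.31 and 2.79, as did leaving out b with the array labelled KO at 24 h. In these 3 settings the lone KO 0 h array is assumed to vary as the WT pair does. The fit then has fewer degrees of freedom, so only sizes are given.

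Tap1 also moved with the spread of the array. Arrays with wide log ratios had low Tap1, with Pearson r -0.818 (permutation p = 0.00346, adjusted over 8 members 0.0277) and Spearman rho -0.794 (permutation p = 0.00881, adjusted 0.0705) between its level and the SD over all spots of the 10 arrays. Without the 2 arrays farthest from the median SD, WT at 0 h (a) and WT at 1.5 h, r was -0.924. That r still holds KO 0 h array b, which has the widest spread and the lowest Tap1, so it does not show how far r rests on this array. Psmb8 had r -0.767 (adjusted permutation p = 0.0420) and rho -0.624 (adjusted 0.241). For the other 6 members r lay between -0.471 and 0.441 with adjusted p of 0.402 or more. The leukocyte markers Coro1a and Cd3e, outside the set, had r of -0.959 and -0.911, and Ptprc had -0.302. The share of all genes with such an r was not counted. Permutations treat the 10 arrays as exchangeable, but the spread differed between genotypes and times, so these p-values cannot separate spread from design. With all arrays scaled to an equal range the Tap1 difference at 0 h was -0.93 (adjusted p = 0.157) and the 6 h response difference 2.35 (adjusted p = 0.152). After quantile normalization they were -0.84 and 2.27. The direction therefore stayed, at a smaller size.

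**Figure D2:**
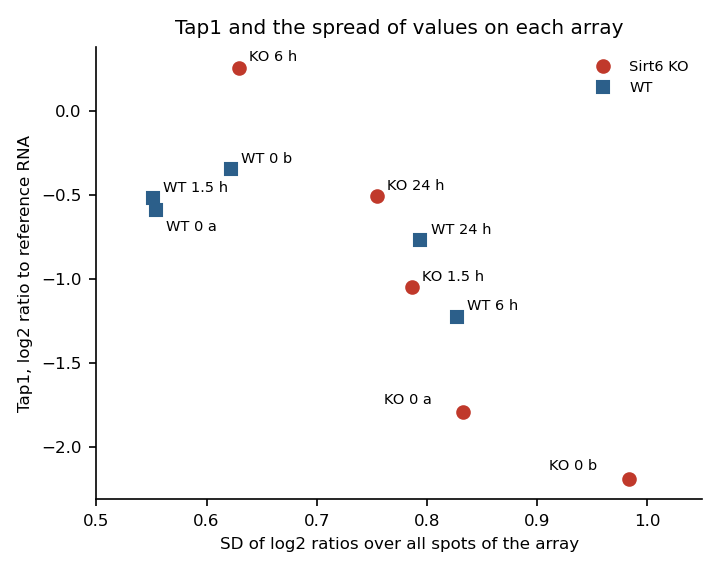
Tap1 log2 ratio to the reference (vertical) against the SD of log2 ratios over all spots of each array (horizontal), KO as red circles and WT as blue squares. The 2 KO 0 h arrays combine wide spread (0.833 and 0.983) with the lowest Tap1, and KO at 6 h (0.629) has the highest.

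Part of the leukocyte markers had the same pattern as Tap1, and others the opposite one. Of 22 macrophage, pan-leukocyte, T or NK cell and B cell markers, 19 were measured, and 8 of those lay below the reference on every array. Their mean was between -1.84 and -0.95 on the KO arrays and between -1.67 and -1.13 on the WT arrays. It correlated with Tap1 over the 10 arrays at r 0.921, a description of arrays that share the same reference and spread. At 0 h 13 of the 19 were lower in KO, against 53.8% of all genes, and at 6 h 15 of 19 had a larger response in KO, against 48.1%. Cd3e (-2.71 at 0 h and 4.14 for the 6 h response difference), Cd79b (-2.33 and 3.54), Ctss (-1.36 and 3.46) and Adgre1 (-1.22 and 3.52) had the signs of Tap1. Cd2 (1.20 and -1.73) and Laptm5 (1.08 and -0.42) had the opposite signs, as had Cd79a, with -1.91 for the 6 h response difference, and Tyrobp was 0.54 higher in KO at 0 h. A log ratio has no zero, so absence of these cells could not be read, and the part of such cells in the Tap1 result was not tested. Fibroblast markers, of which 4 of 8 were above the reference on all arrays, averaged -0.31 to 0.07 in KO and -0.30 to 0.06 in WT. Single ones differed more. Dcn was at -3.07 and -3.54 in KO at 0 h, against -2.25 and -2.36 in WT (adjusted p = 0.194, limma). Its 6 h response difference was 3.28 (SE 0.42, adjusted p = 0.152). Dcn thus had the signs of Tap1 in both comparisons, so these signs were not limited to leukocyte markers. Lum had 0.98 at 0 h and -0.91 for the 6 h response difference (adjusted p = 0.188 and 0.333).

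Tap2, the partner subunit of the transporter, did not follow Tap1 (r -0.040 over the 10 arrays). It was at -1.62 and -1.94 in KO at 0 h, against -2.44 and -2.48 in WT. At 1.5, 6 and 24 h it was at -2.01, -1.72 and -1.12 in KO, against -1.90, -2.04 and -1.80 in WT. The 0 h arrays did not overlap, which held for 24.0% of genes in this direction. KO minus WT was 0.68 at 0 h (SE 0.21, unadjusted p = 0.0211, adjusted p = 0.235) and 0.45 on average (SE 0.16, unadjusted p = 0.0229, adjusted p = 0.478). Removing a running median along the spots turned the 0 h value to -0.13 and brought the average to 0.06, while quantile normalization and scaling to equal range gave averages of 0.83 and 0.87. Its TNF-alpha response at 24 h was 0.65 (SE 0.22, unadjusted p = 0.0175, adjusted p = 0.644), with 0.65 in KO and 0.65 in WT, and 0.51 without the KO 24 h array. In WT all 3 treated arrays lay above both untreated ones, as for 15.3% of genes, and 0 members had them all below (16.4%, against 10.7% for KO).

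Tapbp encodes tapasin, which holds empty class I molecules at the transporter. It was at -1.84 and -2.75 in KO at 0 h, against -1.39 and -1.65 in WT. The KO pair was 0.91 apart and the WT pair 0.26 apart. Later it was at -2.73, -1.89 and -1.59 in KO at 1.5, 6 and 24 h, against -1.93, -1.51 and -1.43 in WT, so KO was the lower at every time. The 0 h arrays did not overlap, as for 28.8% of genes in this direction. The average difference was -0.58 (SE 0.20, unadjusted p = 0.0202, adjusted p = 0.464), in a comparison where 5.45% of genes were lower at that unadjusted threshold. It was -0.10 after quantile normalization and -0.15 after scaling to equal range. The difference at 0 h was -0.77 (SE 0.34, adjusted p = 0.332). With array a left out the value was -1.22, with array b left out -0.30. Quantile normalization and scaling to equal range turned it positive, so its direction at 0 h depends on the scaling.

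**Figure D3:**
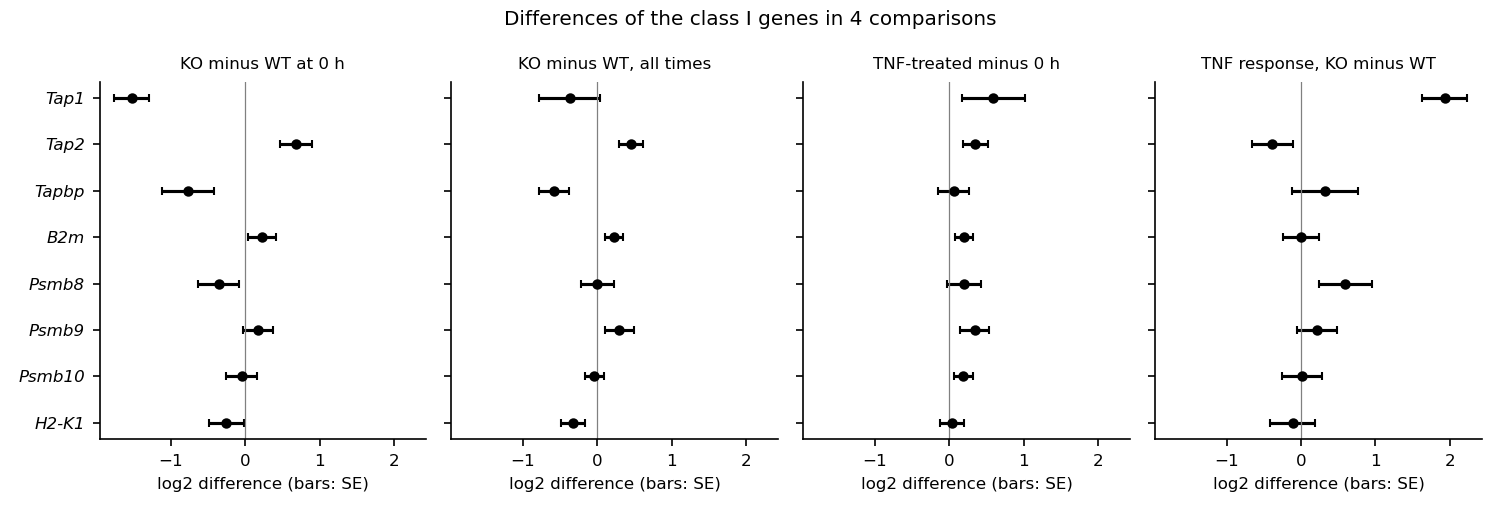
Log2 differences (horizontal, bars SE from limma) of the 8 class I genes (rows) in 4 comparisons, from left KO minus WT at 0 h, KO minus WT over all times, TNF-treated minus untreated averaged over 3 times, and the KO minus WT difference of that response. Tap1 stands apart at 0 h (-1.52) and in the response difference (1.93), and all 8 points of the third panel lie above 0.

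B2m is the light chain of every class I molecule. Averaged over 75 spots it was at -0.09 and -0.18 in KO at 0 h, against -0.37 and -0.35 in WT. At 1.5, 6 and 24 h it was at -0.11, -0.05 and 0.34 in KO, against -0.41, -0.12 and 0.03 in WT. KO was higher than WT at every time, with no overlap at 0 h (24.0% of genes in this direction), and the highest WT array lay above 4 of the KO arrays. KO minus WT averaged 0.22 (SE 0.12, adjusted p = 0.567). The TNF-alpha response at 24 h was 0.43 (SE 0.16, unadjusted p = 0.0260, adjusted p = 0.659), in a comparison where 0.0139% of genes passed the adjusted test and 3.88% were higher at the unadjusted threshold. It was 0.47 in KO and 0.39 in WT, and the difference between them was 0.08 (SE 0.33, adjusted p = 0.931). The 24 h response was 0.38 without the KO 24 h array and lay between 0.36 and 0.49 in 21 alternatives.

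The B2m spots show how far readings of 1 gene scatter within an array. Their SD was 0.183 (WT at 6 h) to 0.403 (WT at 1.5 h), against 0.549 to 0.972 for all other spots of the same arrays. Spot by spot, the KO mean exceeded the WT mean by 0.224 (SD 0.153 over spots), with 72 of 75 spots higher. Between the KO 0 h arrays the same spots differed by 0.0962 (SD 0.335), and between the WT 0 h arrays by -0.0225 (SD 0.187). The KO pair thus scattered more than the WT pair, and the spots share arrays, so they are not replicates of a genotype. At 24 h 69 of 75 spots were above the reference on the array labelled KO and 45 on WT.

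Spots that read high did so on most arrays. Over the 75 spots the median r of an array with the others was 0.492 to 0.734 for 9 arrays. The array labelled KO at 24 h had r between -0.292 and 0.149 with the other 9, with a median of -0.161. On it the spots that read high elsewhere did not read high. The sources used here do not say whether the B2m spots carry 1 or several oligonucleotides.

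**Figure D4:**
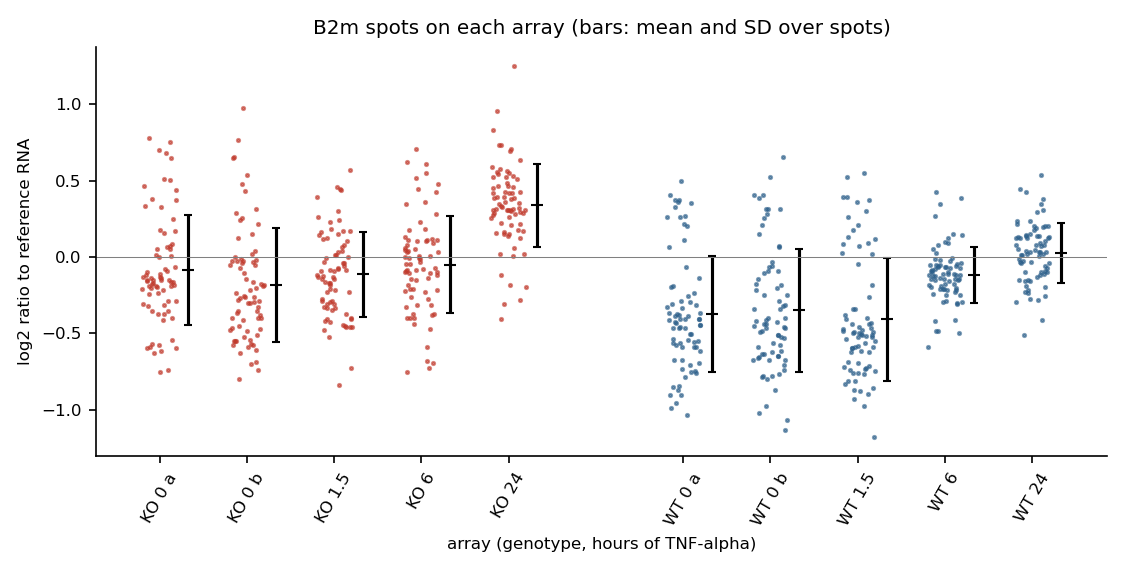
Log2 ratio to the reference (vertical) of the 75 complete B2m spots (points) on each array (horizontal), KO in red at left and WT in blue at right, with the mean and SD over spots as black bars. The array labelled KO at 24 h has the highest mean (0.34), and WT at 6 and 24 h the narrowest scatter (SD 0.183 and 0.196).

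The inducible proteasome subunits were read with 6 probes. Psmb9 had 1 probe and was at -1.42 and -1.56 in KO at 0 h, against -1.54 and -1.77 in WT. At 1.5, 6 and 24 h it was at -1.57, -0.82 and -0.74 in KO, against -1.19, -1.56 and -1.52 in WT. The KO arrays at 6 and 24 h were the 2 highest of the 10. The response differences of 0.57 at 6 h and 0.62 at 24 h (SE 0.35 each) had adjusted p of 0.514 and 0.513, and became -0.56 and -0.34 after quantile normalization. Psmb9 shares 275 bases of its promoter window with Tap1, and the 2 correlated at r 0.466 over the 10 arrays. Psmb9 had a higher r with Tap2 (0.780), Psmb8 (0.715) and B2m (0.581). A part of the shared window in these values was not tested.

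Psmb8 averaged -2.32 and -2.83 in KO at 0 h, against -2.01 and -2.44 in WT. At 1.5, 6 and 24 h it averaged -2.43, -1.77 and -2.03 in KO, against -2.00, -2.41 and -2.55 in WT. Its 3 probes did not move alike. The probe at spot 720 correlated at r -0.223 with that at spot 18957 and 0.231 with that at 27433, while the last pair correlated at 0.736. KO minus WT at 0 h was 0.48 (SE 0.34) for spot 720, -0.78 (SE 0.29) for 18957 and -0.77 (SE 0.28) for 27433, and TNF-alpha at 24 h gave 0.76 (SE 0.30), -0.34 (SE 0.30) and -0.10 (SE 0.41). The response of Psmb8 at 6 h, 0.99 larger in KO by its mean (SE 0.48, adjusted p = 0.431), followed in size that of Tap1 but was -0.71 after quantile normalization and -0.55 after scaling to equal range. Without the array labelled KO at 24 h its TNF-alpha response at 24 h turned to -0.21.

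Psmb10 stayed near the reference, between -0.34 and 0.04 in KO and between -0.34 and 0.11 in WT. No difference of Psmb10 exceeded 0.30 in any of the 10 comparisons. Its 2 probes, at spots 36308 and 36699, correlated at r -0.083. At 24 h spot 36308 was 0.52 higher (SE 0.19) and spot 36699 was 0.05 lower (difference -0.05, SE 0.24) with TNF-alpha. Psmb5, Psmb6 and Psmb7 are the constitutive subunits that the inducible ones replace. Psmb5 was at 1.72 and 1.60 in KO at 0 h, against 1.21 and 1.02 in WT. Psmb5 had a KO minus WT of 0.54 at 0 h (SE 0.20, unadjusted p = 0.0385, adjusted p = 0.271) and a 6 h response difference of -1.06 (SE 0.34, adjusted p = 0.306). These signs of Psmb5 are the opposite of those of Tap1. Psmb6 had 0.15 at 0 h (SE 0.23) and -0.25 for the 6 h response difference (SE 0.41). Psmb7 had -0.42 at 0 h (SE 0.22), the sign of Tap1, and -0.002 for the 6 h response difference (SE 0.37). Of the 3 constitutive subunits 0 passed the adjusted test in any comparison.

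**Figure D5:**
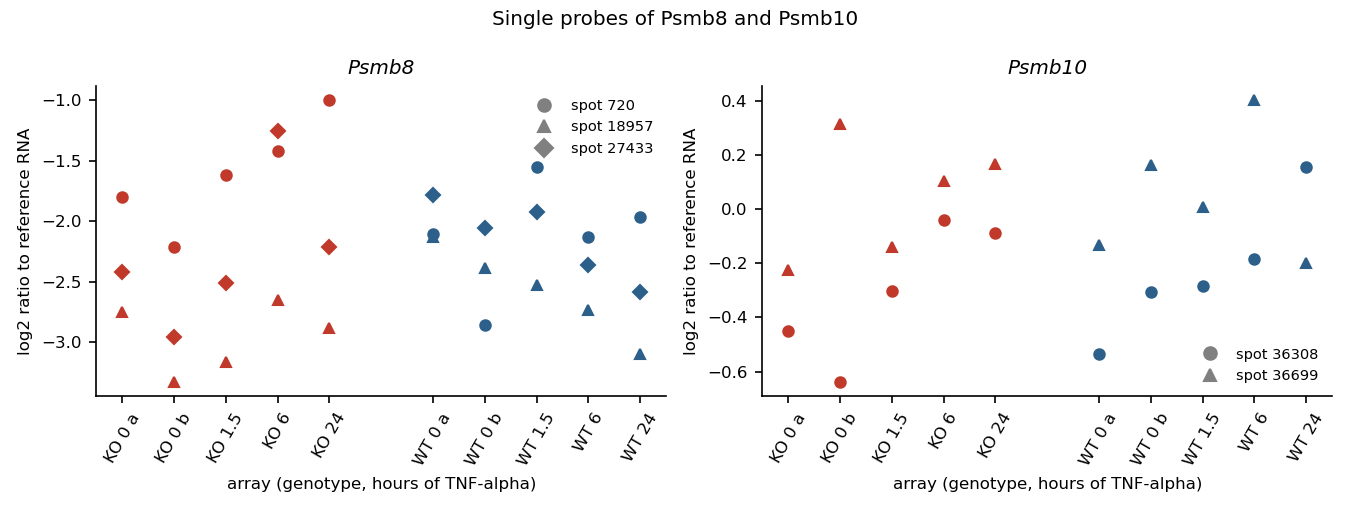
Log2 ratio to the reference (vertical) of each probe (marker shape) of Psmb8 and Psmb10 on each array (horizontal), KO in red at left and WT in blue at right. On the KO arrays at 24 h Psmb8 spot 720 is the highest (-0.999) while spots 18957 and 27433 are at -2.88 and -2.22.

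H2-K1 encodes a classical class I heavy chain. It lay below the reference on every array, at -3.05 and -3.38 in KO at 0 h, against -2.80 and -3.12 in WT. At 1.5, 6 and 24 h it was at -3.93, -3.11 and -2.66 in KO, against -3.10, -2.86 and -2.64 in WT. KO was the lower array at all 3 treated times, with differences of -0.83, -0.25 and -0.02. The average difference was -0.32 (SE 0.16, adjusted p = 0.554) and turned positive after quantile normalization and after scaling to equal range. The TNF-alpha response at 24 h was 0.44 (SE 0.22, adjusted p = 0.733), and 0.25 without the KO 24 h array. Class I heavy chain genes are near copies, so whether this probe also reads transcripts of its relatives is uncertain.

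Averaged over both genotypes, the TNF-alpha responses of the members were smaller than that of Ccl2, although Tap1 on the KO 6 h array was 2.25 above the KO 0 h mean. In these averages 5 of 8 were above 0 at 1.5 h (median 0.11, against 0.01 over all genes), and 8 of 8 at 6 h (0.27, against 0.02) and at 24 h (0.43, against 0.04). Counted in each genotype against its own 0 h mean, 4, 8 and 8 of 8 were higher in KO at 1.5, 6 and 24 h, against 4, 6 and 6 in WT. Over all genes the share higher was 53.1%, 49.7% and 56.1% in KO, against 45.0%, 53.3% and 51.2% in WT. The single members did not pass the adjusted test at any time, where 0.00696%, 0.0139% and 0.0139% of genes did at 1.5, 6 and 24 h. Single arrays decided part of these counts. Without KO at 6 h, 6 of 8 were above 0 at that time (median 0.10), with Tap1 at -0.41 and Psmb8 at -0.09. Without KO at 24 h, 7 of 8 were above 0 at 24 h (median 0.19). The 24 h level then comes from the WT array alone, while the genotype term still draws on KO arrays at the other times. Tap1 was at 0.20 in this fit, against -0.30 in WT counted from its own 0 h mean. Averaged over the 3 times, Tapbp and H2-K1 turned below 0 after quantile normalization and after scaling to equal range.

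The members moved together only in part. Over the 10 arrays 26 of 28 pairs had a positive r, with a median of 0.295, and all pairs share the arrays and the reference. The share of positive pairs over all genes is not given, so this count is a description. The closest were Tapbp with H2-K1 (0.892), Tap2 with B2m (0.845) and Tap2 with Psmb9 (0.780). Tap1 with Psmb8 reached 0.760. The 5 non-members nearest to the members' mean profile were 2610002M06Rik (r 0.951), Ncapd3 (0.947), Extl2 (0.939), Slbp (0.938) and Rsrp1 (0.937). Those nearest to Tap1 in the pathway lists were the class II chaperone subunit H2-DMb1 (0.933) and the interferon-induced Oasl2 (0.777).

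Other genes of the pathway were read from lists. Of 11 partners of peptide loading and trimming, 10 were measured, and none passed the adjusted test. At 0 h their median KO minus WT was 0.01, against -0.15 for the members and -0.04 over all genes. Calreticulin (Calr), which folds class I molecules, had -1.62 (SE 0.60, adjusted p = 0.274). It was at -0.70 and -2.36 on the KO arrays, against -0.33 and 0.50 on the WT arrays, so KO array b is far from array a. Pdia3, a partner of Calr in loading, was -0.58 (SE 0.23, adjusted p = 0.287) at 0 h and had a response difference of 1.46 (SE 0.39, adjusted p = 0.276) at 24 h. Of 17 other class I genes 7 were measured, and their response differences at 6 h went both ways. They were 1.70 for H2-M3 (SE 0.48, adjusted p = 0.277), 1.39 for Fcgrt and 1.03 for Hfe. They were -1.08 for Cd1d1, which presents lipids (SE 0.33, adjusted p = 0.293), -1.32 for H2-Q10, -0.52 for Mr1 and -0.09 for H2-T3.

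Of 20 interferon-response genes 14 were measured, and none passed the adjusted test. At 0 h Ifit1, which binds viral RNA, was at -1.86 and -2.18 in KO, against -0.05 and 0.56 in WT (difference -2.27, SE 0.28, adjusted p = 0.187). Oasl2 was at -2.48 and -3.32 in KO, against -0.87 and -1.18 in WT (difference -1.88, SE 0.33, adjusted p = 0.187). Both shared the sign of Tap1 at 0 h, whereas Gbp2 and Rsad2 were higher in KO by 0.84 (SE 0.21, adjusted p = 0.203) and 1.02 (SE 0.23, adjusted p = 0.194). The list was therefore split, with 5 genes above and 9 below 0 and a median of -0.09. At 6 h the response differences of Oasl2 and Ifit1 were 3.55 (SE 0.57, adjusted p = 0.178) and 1.86 (SE 0.49, adjusted p = 0.266), while Gbp2 had -1.18 (SE 0.37, adjusted p = 0.294). Of 7 class II genes 5 were measured. H2-DMb1 was at -3.55 and -3.30 in KO at 0 h, against -1.69 and -1.15 in WT (difference -2.01, SE 0.26, adjusted p = 0.187). Its 6 h response difference was 3.81 (SE 0.45, adjusted p = 0.152). The other class II genes were split in KO minus WT at 0 h, with -0.51 for H2-Eb1, -0.27 for Ciita, 0.52 for H2-DMa and 0.14 for H2-Aa. Their 6 h response differences were, in that order, 0.63, 1.06, -0.11 and 0.17. Of 20 regulators 17 were measured, and none passed the adjusted test. Rela, an NF-kB subunit, had a KO minus WT of 0.64 at 0 h (SE 0.19, adjusted p = 0.223). The regulators did not all go this way. Irf9 was at -0.95 and -1.13 in KO at 0 h, against -0.87 and -0.23 in WT.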

How the data were processed

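The 10 arrays hold, per the labels, amplified RNA of Sirt6 KO and WT samples in Cy5 against universal mouse reference RNA in Cy3. The authors deposited 1 log ratio per spot, read here as log2 of Cy5 over Cy3. The log base, the direction and the authors' normalization are not given in the sources used here. The values run from -8.23 to 8.97, and read this way Ccl2, Nfkbia and Cxcl1 were higher after TNF-alpha. Spots with a value on all arrays (36113 of 38784, with 36822 to 38556 values per array) and 1 gene symbol were kept, the median over genes was subtracted from each array (array medians of the deposited values lay between -0.255 and -0.004), and the probes of a gene were averaged. Precision is limited by how few arrays there are.

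Differences were tested in limma 3.58.1 under R 4.3.3 (lmFit, eBayes, two-sided, Benjamini-Hochberg over 14365 genes, threshold 0.05), tested on simulated data. Genotype and time as additive terms (5 residual degrees of freedom) gave the genotype average and the TNF-alpha responses. With all arrays, the genotype average weighs the 5 arrays of a genotype alike, so 0 h enters with 2 of them. Residuals of this fit hold the spread of the 0 h pairs plus any difference in response between the genotypes. Separate means for the 8 groups (2 residual degrees of freedom, from the 0 h pairs) gave KO against WT at 0 h and the differences between responses. Correlations with array spread used 100000 permutations. Members, lists, alternatives and the naming rule (all members, Sirt6, listed genes and the 5 genes nearest to the mean profile) were chosen with earlier results of these data known, and the relation to array spread and the pooled leukocyte markers were examined after seeing the values. Letters a and b are not stated to pair the genotypes: over genes, the b minus a difference in KO correlated at -0.0053 with that in WT.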

Additional observations from a re-analysis of the deposited data

Results flagged for a closer look

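The differences of Tap1 from 0 h had opposite signs in the 2 genotypes. It was higher than at 0 h on all 3 treated KO arrays (0.94, 2.25 and 1.48 log2 units) and under the 0 h mean on all 3 treated WT arrays (-0.05, -0.76 and -0.30), of which that at 1.5 h lay within the untreated WT pair. The difference between the responses averaged 1.93 (SE 0.30) and did not pass the adjusted test (adjusted p = 0.227, limma). The spread of the arrays and the leukocyte marker mean that moved with Tap1 were given beside it, and their part in the result was not tested.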

How the results depend on the processing

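The count of members passing the adjusted test was 0 in all 10 comparisons and 0 under quantile normalization, scaling to equal range, no centring, removal of a running median, other filters, array weights, a robust prior and a threshold of 0.1. In a design with so few arrays these counts of 0 say nothing about stability. The count changed when a KO 0 h array was left out: at 0 h to 2 without array a (Tap1 and Tapbp) and 1 without array b (range over left-out arrays 0 to 2), and for the response difference at 6 h, at 24 h and averaged to 1 without either (range 0 to 1). Leaving out the KO 24 h array with KO 0 h array b gave 1 at 0 h and 1 for the 6 h response difference. In these settings the KO spread is taken from the WT pair. With the array letter as a replicate block the count was 0 in each comparison, and the Tap1 average difference was -0.37 (adjusted p = 0.821). Of the single-gene values 132 changed sign without passing, 11 passed only in an alternative, and 1445 kept sign and side. Response differences at a time whose array was left out, and their average, could not be fitted. Without centring, the median over all genes shifted by -0.157 at 0 h, 0.263 for the response difference at 6 h and 0.207 at 24 h.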
